A study of Mus musculus with 8 samples.

Results

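The genes examined here encode bone morphogenetic proteins (BMPs) and growth and differentiation factors (GDFs). They are Bmp1 to Bmp7, Gdf5, Gdf6 and Gdf10, 10 genes chosen by symbol among the 47706 genes of the table, and each symbol had a single entry. RNA was sequenced from primary mouse calvarial osteoblast cultures that had been differentiated for 7 days and then treated with PTH (4 samples) or vehicle (4 samples) for 24 hours. PTH was the amino-terminal fragment of parathyroid hormone, and what the vehicle held is not stated for these cultures. According to the methods, the cells came from the skullcaps of newborn mice and were serum-starved before treatment. The labels of both groups begin with Con and name no deletion, and they do not give the strain, the sex or whether the samples came from separate preparations, so the p-values measure the spread between these samples, which may be technical. The labels speak of adipogenic differentiation, whereas the methods describe osteogenic medium. The median level of 13 osteoblast markers was 207 to 370.1 CPM over the 8 samples, and that of 10 adipocyte markers was 4.51 to 7.08 CPM. CPM is the count of a gene relative to the TMM-normalized size of its library.

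BMPs and GDFs are secreted dimers of the TGF-β superfamily that are cleaved from larger precursors. Most bind pairs of type I and type II serine/threonine kinase receptors, which for many of the ligands, though not all, phosphorylate SMAD1, SMAD5 and SMAD9. With SMAD4 these enter the nucleus and act on targets such as the Id genes, and secreted antagonists such as noggin and gremlin keep the ligands from their receptors. The name comes from the ability of these proteins to induce bone, but their roles differ. Bmp2 and Bmp4 encode a closely related pair of osteogenic ligands, Bmp5, Bmp6 and Bmp7 a related group of such ligands, Bmp3 and Gdf10 a pair set apart by sequence, of which BMP3 opposes osteogenic BMPs, and Gdf5 and Gdf6 ligands of joint and skull development. Bmp1 encodes no ligand: it is a secreted metalloprotease that trims procollagen and cleaves the BMP antagonist chordin.

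Total counts lay between 33605610 (PTH replicate 2) and 56090654 (PTH replicate 1), and between 41618108 and 46757836 in the vehicle samples. Tnfsf11, the RANKL gene that PTH induces in osteoblasts, rose from 1.42 ± 0.365 to 128 ± 20.01 CPM (means ± SD, n = 4 each, as are all values written so below), which matches the treatment labels. Of 16736 genes with enough counts to be tested, 45.8% had an adjusted p under 0.05 for PTH against vehicle by edgeR's quasi-likelihood test. The share was 23.3% for higher and 22.5% for lower expression with PTH, and in 43.0% the 4 samples of each group did not overlap. The median log2 fold change of all tested genes was -0.00081. In bulk RNA, fewer cells of a type and less RNA per cell cannot be told apart.

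PTH moved these genes in both directions. All 10 passed the filter on low counts, Gdf5 only through its PTH samples. With PTH 5 were higher (Bmp1, Bmp5, Bmp6, Bmp7 and Gdf5), 4 were lower (Bmp2, Bmp3, Bmp4 and Gdf6) and Gdf10 did not pass the test. Of all tested genes 23.3% were higher and 22.5% lower. The groups did not overlap in 7 of the 10, and in 43.0% of all tested genes. The median log2 fold change of the list was 0.038, and its range was from -2.54 for Bmp4 to 2.16 for Gdf5. Of all genes tested, 36 (0.215%) had a log2 fold change below that of Bmp4.

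The sequence before the RefSeq start of a gene that fell and of one that rose is shown so that both can be read beside the values. RefSeq's promoter windows on GRCm38.p6 matched 4 of the genes, Bmp4, Bmp5, Bmp6 and Gdf10. The 250 bases before the RefSeq start of Bmp4 lie at chr14:46390670-46390919 on the minus strand, and those of Bmp6 at chr13:38345466-38345715 on the plus strand. The starts of Bmp6 differ between annotations: GENCODE M21, used for the gene positions below, begins the gene at 38345107, so the Bmp6 stretch lies before the RefSeq start but inside the gene as GENCODE gives it. For Bmp4 the stretch ends where the gene begins in both. Both are written 5′ to 3′. Capitals mark an E-box (CACGTG, the only form of it searched) and a GC box (GGGCGG, or CCGCCC on the other strand).
Bmp4: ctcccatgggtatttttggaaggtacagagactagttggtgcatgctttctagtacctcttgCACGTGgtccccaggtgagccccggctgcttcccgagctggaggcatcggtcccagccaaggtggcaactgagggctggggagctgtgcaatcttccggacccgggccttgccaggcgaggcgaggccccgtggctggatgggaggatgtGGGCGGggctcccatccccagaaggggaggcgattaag
Bmp6: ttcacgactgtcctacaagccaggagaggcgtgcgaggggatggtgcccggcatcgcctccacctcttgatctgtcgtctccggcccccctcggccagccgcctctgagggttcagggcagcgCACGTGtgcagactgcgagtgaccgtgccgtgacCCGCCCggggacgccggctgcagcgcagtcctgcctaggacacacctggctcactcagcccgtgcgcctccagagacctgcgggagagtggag
The E-box and GC box letters, chosen after the sequences were seen, occur in 7.15% and 35.7% of all 32851 windows of 300 bases. Both genes hold each of them 1 time, although Bmp4 was lower and Bmp6 higher with PTH. The cAMP response element TGACGTCA (in 1.79% of windows), its half-site TGACG (20.8%), which overlaps it, and the RUNX motif TGTGGT (16.8%) were searched on both strands and were in none of the 4 windows. The SMAD-type GC motif GGCGCC (11.9%) was found 1 time in the window of Gdf10, after the start, and 4 matches to the GC box lay before it. The window of Bmp5, with 43.3% G and C against 64.0% for Bmp4 and 69.3% for Bmp6, held none of the 6 motifs.

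Levels of different genes were compared per length, as CPM per kilobase of annotated exon. The length joined all annotated exons of a gene: 8870 bases for Bmp1, 5210 for Gdf10 and 2248 for Bmp4. The order depends on this length, and no other was tried. In CPM, before division by length, Bmp1 stood highest with vehicle (327 ± 11.6), followed by Gdf10 (283 ± 16.6) and Bmp4 (101 ± 4.43). In vehicle cultures Gdf10 stood highest, at 54.3 ± 3.18 CPM per kb, followed by Bmp4 (44.7 ± 1.97) and Bmp1 (36.8 ± 1.31), and the samples of neighbours in this order did not overlap. Bmp2 (5.23 ± 0.336) and Bmp3 (5.12 ± 1.08) came next and overlapped each other. Below them, without overlap between neighbours, were Bmp5 (2.84 ± 0.185), Bmp6 (1.82 ± 0.196), Gdf6 (1.24 ± 0.252), Bmp7 (0.440 ± 0.120) and Gdf5 (0.0912 ± 0.0636). With PTH, Bmp1 (46.2 ± 3.55 CPM per kb) and Gdf10 (46.2 ± 9.71) overlapped at the top, and Bmp4 followed at 7.70 ± 1.03. Bmp5 (3.51 ± 0.506), Bmp6 (3.07 ± 0.649), Bmp3 (2.80 ± 0.706) and Bmp2 (2.28 ± 0.554) came next, and each of these neighbours overlapped. Bmp2 did not overlap Bmp7, the gene below it. Bmp7 (1.35 ± 0.349) and Gdf6 (0.838 ± 0.171) overlapped each other, and Gdf5 was again lowest (0.415 ± 0.0372).

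**Figure D1:**
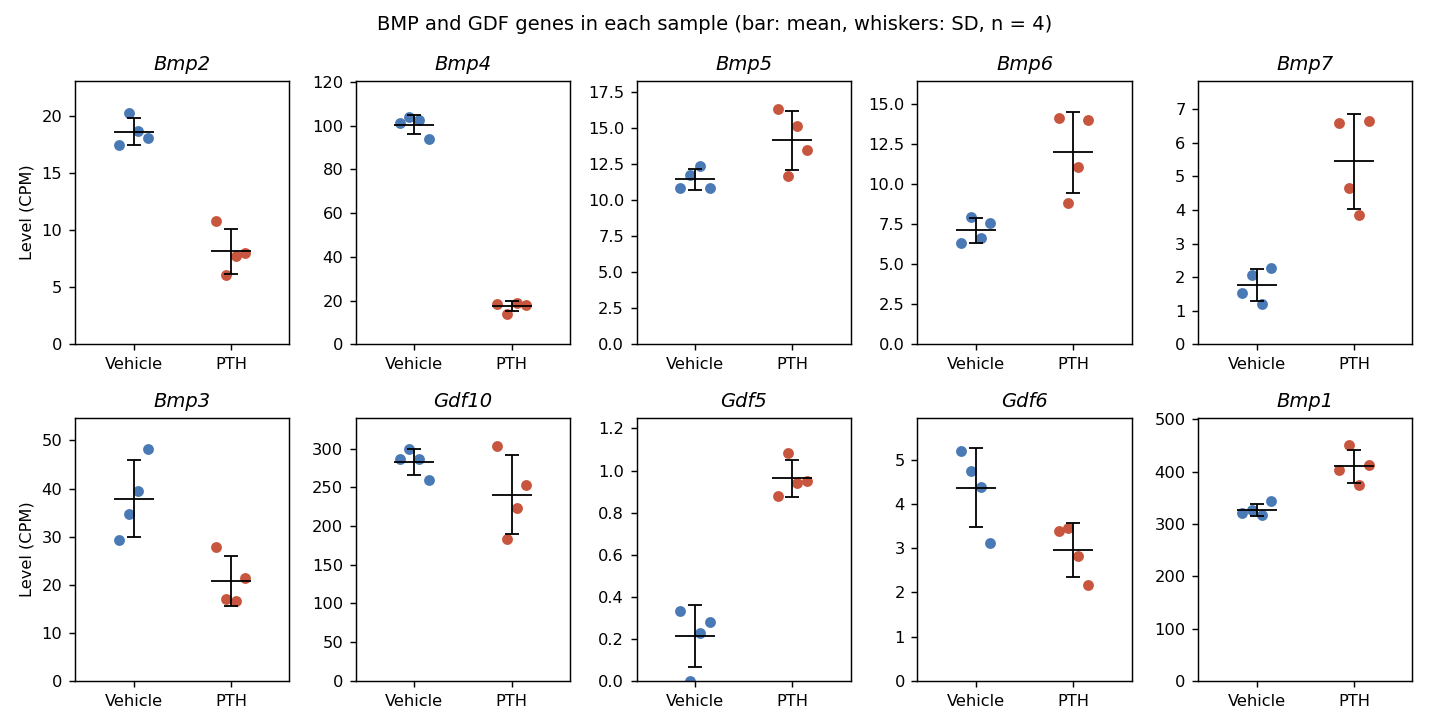
Level of each of the 10 genes in CPM (vertical axis, from 0, with its own scale for each gene) in the 4 vehicle samples (blue) and 4 PTH samples (red). Bars are means and whiskers SDs. The groups are apart in 7 genes and overlap in Bmp5, Gdf6 and Gdf10, and Bmp4 falls from 94.2 to 104 CPM with vehicle to 13.9 to 19.03 CPM with PTH.

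Bmp4 decreased more than any other of the 10 genes. It lies on chromosome 14 (46383520 to 46390669). It stood at 101, 104, 103 and 94.2 CPM in vehicle replicates 1 to 4 and at 18.2, 13.9, 19.03 and 18.1 CPM in PTH replicates 1 to 4. Every PTH sample was far below every vehicle sample, and the spread within each group was small beside the gap. The mean was 5.80-fold lower with PTH (log2 fold change -2.54, SE 0.0951, adjusted p = 8.26e-10 by edgeR). The decrease rests on 462 to 933 counts per PTH sample and 4533 to 4928 per vehicle sample, and the log2 fold change lay between -2.58 and -2.44 with each sample left out in turn. A predicted gene on the other strand, Gm15217, shares 89 exon bases with Bmp4 and had at most 14 counts in any sample.

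Bmp2, the paralog of Bmp4 on chromosome 2 from 133552159 to 133562885, also fell. It had 17.4, 20.2, 18.7 and 18.1 CPM in the vehicle samples and 10.8, 6.02, 7.70 and 7.99 CPM in the PTH samples. The groups did not overlap, and PTH replicate 1 was the highest of its group. The level was 2.28-fold lower with PTH (log2 fold change -1.19, SE 0.147, adjusted p = 3.97e-05 by edgeR), and the log2 fold change lay between -1.36 and -1.06 with each sample left out. Per length, Bmp4 stood above Bmp2 in both groups.

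The opposite direction was seen in Bmp5, Bmp6 and Bmp7. Bmp7, which encodes the ligand also called osteogenic protein 1, lies on chromosome 2 from 172868012 to 172940321. It had 1.54, 2.07, 1.21 and 2.26 CPM with vehicle and 6.59, 4.66, 3.86 and 6.66 CPM with PTH, with no overlap. The increase was 3.08-fold (log2 fold change 1.62, SE 0.246, adjusted p = 2.00e-04 by edgeR), on 58 to 112 counts per vehicle sample and 148 to 338 per PTH sample. Among the PTH samples, replicates 1 and 4 stood apart from replicates 2 and 3. With each sample left out, the log2 fold change of Bmp7 lay between 1.48 and 1.77.

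Bmp6, on chromosome 13 from 38345107 to 38500302, encodes a ligand that also controls hepcidin in the liver. It had 6.29, 7.92, 6.63 and 7.56 CPM with vehicle and 14.1, 8.82, 11.04 and 14.0 CPM with PTH. The lowest PTH sample, replicate 2, was still above the highest vehicle sample. Bmp6 rose 1.69-fold (log2 fold change 0.76, SE 0.153, adjusted p = 0.00158 by edgeR), and the log2 fold change lay between 0.67 and 0.89 with each sample left out. It shares 224 exon bases with Txndc5 on the other strand, and the strand setting of the counting was not given. Txndc5, an abundant gene of protein folding, had 547 ± 29.4 CPM with vehicle and 536 ± 84.5 with PTH (log2 fold change -0.03, adjusted p = 0.841 by edgeR). Its PTH samples, at 641, 443, 499.6 and 559 CPM, stood in the same order as those of Bmp6, which is also the order of their total counts. The vehicle samples of Txndc5, at 573, 571, 528 and 516 CPM, did not stand in the order of Bmp6. The part of Txndc5 reads in Bmp6 was not tested.

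Bmp5, on chromosome 9 from 75775364 to 75900310, changed least of the 3. It had 10.8, 11.7, 12.3 and 10.8 CPM with vehicle and 16.3, 11.6, 15.2 and 13.5 CPM with PTH. PTH replicate 2 lay within the range of the vehicle samples, and the other 3 PTH samples lay above it. The log2 fold change of 0.31 (SE 0.112, adjusted p = 0.0397 by edgeR) was close to the threshold. It held with 2 of the 8 samples left out, PTH replicate 2 (adjusted p = 0.00698) and vehicle replicate 3, and the adjusted p rose to as much as 0.111 without any of the other 6. It was 0.0576 with DESeq2, 0.108 without the filter on low counts and 0.0667 with the replicate number as a block. By an exact permutation test, two-sided, the p was 0.0857. An antisense gene, Gm26903, covers 1878 exon bases of Bmp5 but had 2 counts in 1 vehicle sample and 0 in the other 7 samples.

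Bmp3 and Gdf10, which form a sequence pair, gave different results under the same test, and the difference between them was not tested. Bmp3, on chromosome 5 from 98854415 to 98884396, is an abundant BMP of adult bone. It had 29.4, 34.6, 39.4 and 48.1 CPM with vehicle and 27.9, 16.9, 16.7 and 21.4 CPM with PTH. The highest PTH sample, replicate 1, was just below the lowest vehicle sample. Bmp3 was 1.82-fold lower with PTH (log2 fold change -0.87, SE 0.177, adjusted p = 0.00168 by edgeR), and the log2 fold change lay between -1.05 and -0.73 with each sample left out.

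Gdf10, also called BMP3B, lies on chromosome 14 from 33923587 to 33937983. It had 287, 299.7, 286 and 260.1 CPM with vehicle and 303, 183, 224 and 253 CPM with PTH. PTH replicate 1 was above all vehicle samples and the other 3 PTH samples were below them. The log2 fold change was -0.23 (SE 0.126, adjusted p = 0.152 by edgeR). Without PTH replicate 1 it was -0.37 (adjusted p = 0.00952), and in the other 7 fits that left out a sample the adjusted p was not under 0.05, up to 0.393. The 4 PTH samples of Gdf10, from high to low, followed their total counts, as did those of Bmp2 and Bmp6. Replicate 1, the deepest PTH library, was the highest of its group in 5 of the 10 genes, and replicate 2, the shallowest, was the lowest in 5. The part of depth in this was not tested. With both left out, an alternative added after the data were seen, Gdf10 passed the test at -0.25 on the log2 scale (adjusted p = 0.0261). Then 5 of the genes were lower and 5 higher.

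**Figure D2:**
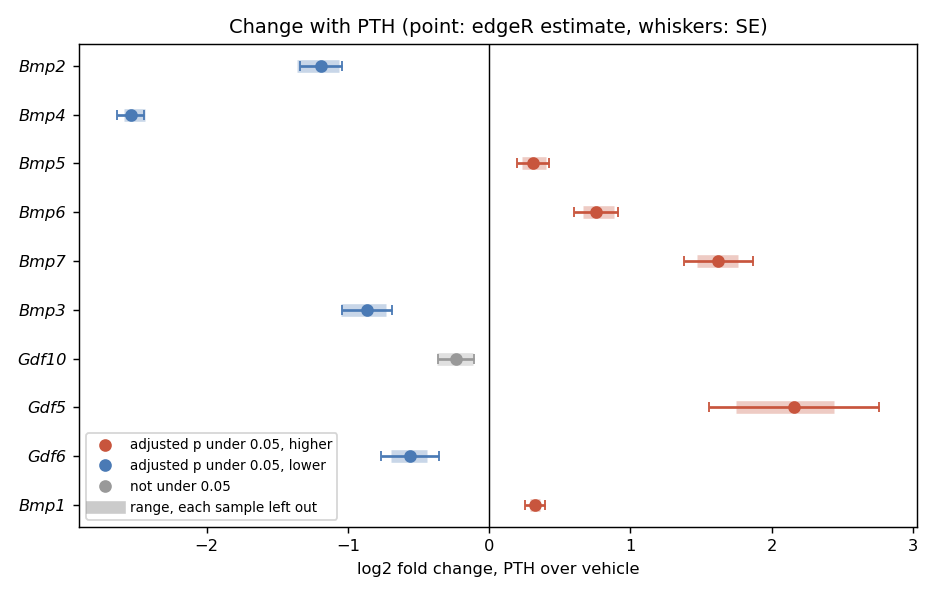
Log2 fold change of each gene with PTH over vehicle (horizontal axis). Points are edgeR estimates with SE as whiskers, pale bars are the range with each of the 8 samples left out, and colour gives the direction of genes with an adjusted p under 0.05. Bmp2, Bmp4, Bmp3 and Gdf6 lie below 0, Bmp5, Bmp6, Bmp7, Gdf5 and Bmp1 above it, and Gdf10 is grey.

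Gdf5 had the largest increase and the lowest level of the genes. It encodes a ligand of joint formation and lies on chromosome 2 from 155941023 to 155945367. It had 15, 0, 11 and 14 counts in the vehicle samples and 45, 36, 36 and 40 in the PTH samples, or 0.212 ± 0.147 and 0.963 ± 0.0864 CPM. Every PTH sample was above every vehicle sample, although at so few counts the size of the change is loosely known. The filter on low counts asks for a minimum in as many samples as a group holds. With 0 counts in vehicle replicate 2, Gdf5 passed it only through its PTH samples. Its entry into the test was thus not independent of its higher level with PTH. Without the filter the adjusted p was 0.0236 by edgeR. The log2 fold change was 2.16 with an SE of 0.599 (adjusted p = 0.0109 by edgeR) and lay between 1.75 and 2.44 with each sample left out. It was lowest without vehicle replicate 2, the sample with 0 counts. Gm15557, a predicted gene on the other strand that shares 936 exon bases with Gdf5, had 0 counts in all 8 samples.

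Gdf6, the ligand closest to Gdf5 among the genes and known from skull suture and joint development, lies on chromosome 4 from 9844372 to 9862345. It had 5.20, 4.75, 4.38 and 3.12 CPM with vehicle and 3.39, 3.46, 2.82 and 2.16 CPM with PTH. Vehicle replicate 4 lay within the range of the PTH samples. The log2 fold change of -0.56 (SE 0.208, adjusted p = 0.0445 by edgeR) was near the threshold, and the exact permutation test gave p = 0.0857. The call was lost without PTH replicate 3 (adjusted p = 0.0884), PTH replicate 4 (0.116), vehicle replicate 1 (0.114), vehicle replicate 2 (0.0934) or vehicle replicate 3 (0.0832). It was also lost with counts thinned to the smallest library (0.0607), an alternative added after the data were seen.

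Bmp1, the procollagen C-proteinase, was among the most abundant of the genes. It lies on chromosome 14 from 70474558 to 70520234. It had 321, 327, 316 and 343 CPM with vehicle and 403, 450.4, 374 and 413 CPM with PTH, with no overlap. The increase was 1.25-fold (log2 fold change 0.33, SE 0.0716, adjusted p = 0.00264 by edgeR). In the PTH group replicate 2 was highest and replicate 3 lowest, an order unlike that of Gdf10. For Bmp1, Bmp2, Bmp3, Bmp4, Bmp6, Bmp7 and Gdf5, in which the groups did not overlap, the exact permutation test gave p = 0.0286, the smallest that 4 against 4 samples allow.

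The make-up of the ligand transcripts differed between the groups. Over the 9 genes other than Bmp1, the summed level was 109.6 to 121 CPM per kb with vehicle and 53.01 to 83.7 with PTH. Gdf10 made up 45.6% to 47.7% of this sum with vehicle and 66.2% to 69.5% with PTH. Its own level did not pass the test, while the sum of the other 8 genes was 59.7 to 63.5 CPM per kb with vehicle and 17.9 to 25.5 with PTH. Among these 8, Bmp4 took 70.2% to 74.8% with vehicle and 31.7% to 39.1% with PTH. Bmp5 took 4.46% to 4.88% and 14.7% to 17.4%, Bmp6 took 2.68% to 3.25% and 12.6% to 15.7%, and Bmp7 took 0.480% to 0.942% and 4.44% to 7.26%. Bmp2 took 8.15% to 8.96% with vehicle and 9.44% to 11.9% with PTH, since its level fell by less than the sum. Gdf5 took 0% to 0.240% and 1.48% to 2.60%, and Gdf6 took 1.48% to 2.45% and 2.69% to 5.46%. Bmp3 took 6.60% to 10.9% and 10.4% to 14.7%, with overlap. A larger share is thus not a higher level, since Bmp2, Bmp3 and Gdf6 were lower with PTH. The level of Bmp2 and Bmp4 together was 9.05 to 10.7 times that of Bmp5, Bmp6 and Bmp7 together in the vehicle samples, and 1.20 to 1.41 times in the PTH samples. These shares are of transcripts, not of secreted protein, and were not tested, since they rest on the same genes.

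**Figure D3:**
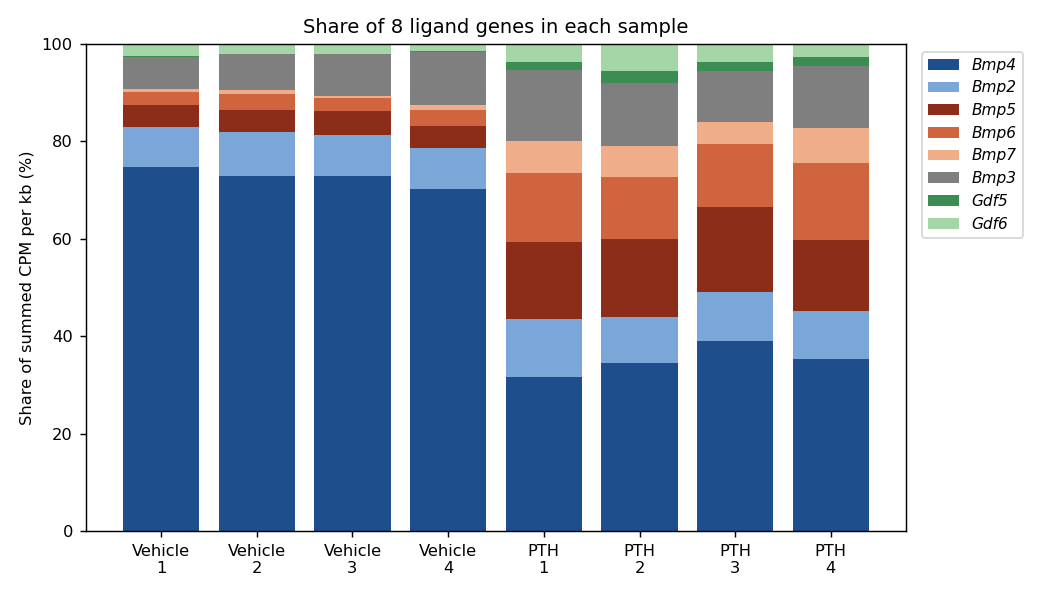
Share (vertical axis, percent) that each of 8 ligand genes takes of their summed CPM per kb in each vehicle and PTH sample (horizontal axis). Gdf10 and Bmp1 are left out. Bmp4 takes at least 70.2% in the vehicle samples and at most 39.1% in the PTH samples. The other genes all take larger shares with PTH, with overlap of the groups in Bmp3.

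Reads that could belong to several genes are few for most of the genes. Of all stretches of 75 bases in their GENCODE M21 transcripts, none was shared with a transcript of another gene in Bmp1, Bmp2, Bmp3, Bmp7, Gdf6 and Gdf10. The share was 0.668% in Bmp4, 3.92% in Bmp6, 38.6% in Gdf5 and 45.7% in Bmp5, in each case with the overlapping gene on the other strand named above.

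Markers of other cell types were set beside these changes, and their part in them was not tested. Their counts stand beside 23.3% higher and 22.5% lower among all tested genes. Of 10 macrophage markers 2 were higher with PTH and none lower, with a summed level of 1006 to 1630 CPM with vehicle and 1575 to 2034 with PTH. Of 10 chondrocyte markers 9 were tested and 2 were higher, with sums of 869 to 1123 CPM and 928 to 1191 CPM. Matn1 stayed under 1 CPM in every sample. Of 10 adipocyte markers 9 were tested and 1 was lower, with sums of 489 to 565 and 508 to 569 CPM. Lep and Retn stayed under 1 CPM. Of 8 endothelial markers 5 were tested, 1 was higher and 1 lower. The sums of the 8 were at most 7.76 CPM, and 6 of the 8, Pecam1 and Cdh5 included, stayed under 1 CPM. Of the 13 osteoblast markers none was higher and 4 were lower, with sums of 93037 to 105572 CPM with vehicle and 86965 to 125641 CPM with PTH.

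The other ligand genes of the family also moved in both directions, as did all tested genes (23.3% higher, 22.5% lower). Of 12 other BMP and GDF genes, 8 were tested, 2 were higher and 2 were lower, with a median log2 fold change of -0.39. Bmp8a, a ligand first known from the male germ line, fell from 7.22 ± 2.15 to 2.70 ± 0.532 CPM (-1.41 as log2 fold change, adjusted p = 2.21e-04 by edgeR), and vehicle replicate 4, at 10.4 CPM, stood above the other 3 (5.80 to 6.50 CPM). Gdf9, the oocyte factor, named here after its values were seen, was the other lower gene, at 1.03 CPM with vehicle and 0.406 CPM with PTH. Gdf11, which signals mainly through SMAD2 and SMAD3, went up from 21.1 ± 1.54 to 35.1 ± 7.67 CPM (0.74 on the log2 scale, adjusted p = 8.02e-04). The stress-induced Gdf15 rose from 6.60 ± 1.04 to 11.4 ± 1.02 CPM (0.79, adjusted p = 3.40e-04). Bmp10, Gdf1, Gdf2 and Gdf3 had too few counts to be tested.

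Of 20 receptor, co-receptor and SMAD genes, 19 were tested, 5 were higher and 10 were lower, with a median of -0.22. Among all tested genes 23.3% were higher and 22.5% lower. Acvr2a, a type II receptor, fell from 88.4 ± 2.95 to 33.6 ± 0.502 CPM (-1.40 as log2 fold change, adjusted p = 2.02e-09 by edgeR). The co-receptor genes of the repulsive guidance family fell too, Rgma from 86.8 ± 7.84 to 36.6 ± 2.44 CPM (-1.24, adjusted p = 1.25e-07) and Rgmb from 28.1 ± 1.81 to 12.4 ± 0.781 CPM (-1.18, adjusted p = 2.40e-07). Among the higher genes were Smurf2, a ubiquitin ligase for SMADs and receptors (log2 fold change 0.75, adjusted p = 1.30e-06), Smad1 (0.67, adjusted p = 6.50e-04) and the pseudoreceptor gene Bambi (0.42, adjusted p = 0.0213).

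Of 23 genes for extracellular antagonists and modulators, 18 were tested, 5 were higher and 3 lower, with a median of 0.042. Among all tested genes 23.3% were higher and 22.5% lower. Grem1, the gremlin gene, whose product binds BMP2 and BMP4, stood at 29.0 ± 1.08 CPM in vehicle and 122 ± 23.1 CPM in PTH samples (log2 fold change 2.07, adjusted p = 4.29e-08 by edgeR). Crim1, a membrane protein with chordin-like repeats, rose from 40.8 ± 1.54 to 91.7 ± 11.5 CPM (1.17, adjusted p = 3.71e-07), and Nbl1, of the same family as gremlin, from 145 ± 16.4 to 232 ± 21.1 CPM (0.68, adjusted p = 9.09e-05). The lower genes were Dand5 (log2 fold change -0.9998, adjusted p = 0.00299), Fstl3 (-0.33, adjusted p = 0.0257) and Bmper (-0.30, adjusted p = 0.00727).

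**Figure D4:**
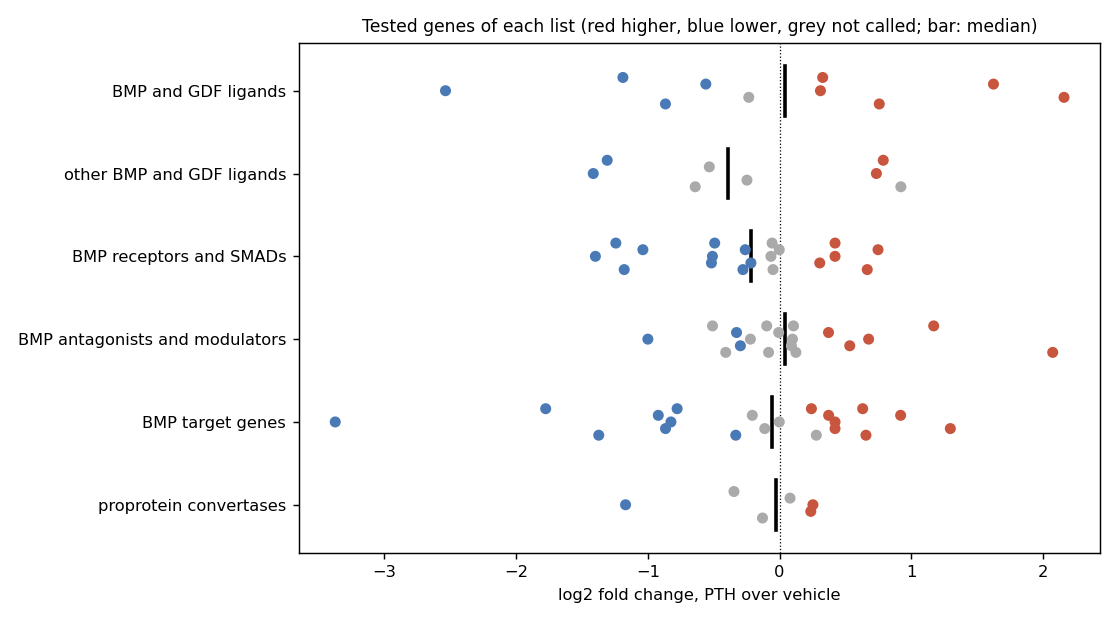
Log2 fold change with PTH over vehicle (horizontal axis) of every tested gene of 6 lists (vertical axis). Each point is a gene, red where higher, blue where lower and grey where the adjusted p was not under 0.05, and the black bar is the median of the list. Genes lie on both sides of 0 in each list, with Bmp4 and Gdf5 as the ends of the ligand list.

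Targets of BMP signaling in bone did not move one way, nor did all tested genes (23.3% higher, 22.5% lower). Of 21 listed, of which Smad6, Smad7 and Bambi are also in the receptor and SMAD list and Runx2, Alpl, Ibsp and Sp7 among the osteoblast markers, 20 were tested, 8 were higher and 8 lower, with a median of -0.057. The Id genes, which are direct SMAD targets, did not move together. Of those named after their values were seen, Id2 was higher (log2 fold change 0.24, adjusted p = 0.00806 by edgeR). Id4 was not called (-0.11, adjusted p = 0.257). Id1 fell from 24.9 ± 2.74 to 9.60 ± 1.57 CPM (-1.37 as log2 fold change, adjusted p = 2.74e-06 by edgeR), while Id3 rose from 131 ± 2.97 to 248 ± 9.31 CPM (0.92, adjusted p = 1.14e-07). The homeobox gene Dlx3 fell from 26.3 ± 10.04 to 2.52 ± 0.419 CPM (-3.37, adjusted p = 3.48e-07), and Sp7, the osterix gene of the osteoblast lineage, from 103 ± 29.6 to 30.1 ± 3.26 CPM (-1.78, adjusted p = 4.45e-06). Hey1 (log2 fold change 1.30, adjusted p = 7.16e-05) and Msx2 (0.66, adjusted p = 1.44e-04) rose. Among 8 genes for the proprotein convertases that cut BMP precursors and related enzymes, 6 were tested, and Furin, the best known of them, averaged 178 CPM in vehicle and 188 CPM in PTH samples (adjusted p = 0.478). Pcsk5 (log2 fold change 0.25, adjusted p = 0.0218) and Pcsk7 (0.24, adjusted p = 0.0282) were higher, with overlap of the groups, and Pcsk4, named after its values were seen, was lower at under 1 CPM in the mean of either group. The median of this list was -0.025.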

How the data were processed

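RNA was sequenced from 8 cultures, grouped by their titles. The authors aligned poly(A)-selected reads to GRCm38 (mm10 in the submitters' processing notes) with HISAT2 and used StringTie2 for the transcripts. They deposited a table of whole-number counts per gene and sample, not normalized, from its companion script, which estimates counts from coverage and a read length setting. That setting, the annotation release and the strand setting are not given in the sources used here. The table lists 47706 genes.

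Counts were normalized by TMM and compared with edgeR 4.0.16 (filterByExpr, minimum count 10, minimum total 15, two-sided quasi-likelihood test, Benjamini-Hochberg adjustment over 16736 genes) in R 4.3.3, at an adjusted p under 0.05. DESeq2 1.42.0, which the submitters' processing notes name, was an alternative. Both were tested on simulated data with edgeR's fitted dispersions, in which 200 of 16736 genes were changed. That setting is unlike these data, in which 45.8% of tested genes were called. For each of the 10 genes, log2(CPM + 0.1) was set against all assignments of the samples in an exact permutation test. Positions and exon lengths are from GENCODE M21 (GRCm38). Tables and figures were made in Python 3.11.15 with pandas 2.3.3, NumPy 2.4.6 and matplotlib 3.10.9.

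The genes, lists and tests were chosen with earlier results of these data known. The text names all 10 genes, Tnfsf11, and up to 3 called genes in each direction from every other list with a mean of at least 1 CPM. Intervals of counting error were not computed, and depth limits genes with few counts such as Gdf5.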

Additional observations from a re-analysis of the deposited data

Results flagged for a closer look

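In 3 of the 68 groups of 4 samples examined, 1 for each named gene and treatment, a single sample stood so far from the others that the gap, as a share of the range of the group, passed Dixon's critical value. By chance about 1 in 20 groups would do so. Vehicle replicate 4 had 10.4 CPM of Bmp8a where the other 3 vehicle samples had 5.80 to 6.50 CPM. Vehicle replicate 2 had 92.8 CPM of Acvr2a where the others had 86.5 to 87.5 CPM. PTH replicate 1, the deepest library, had 157 CPM of Tnfsf11 where the other 3 PTH samples had 115 to 120 CPM. None of the 10 BMP and GDF genes examined was among them.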

How the results depend on the processing

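Of 18 alternatives run for each gene, none turned the direction of any of the 10. The required log2 fold change of at least 1 reuses the main estimates and could not turn a direction. Summing by symbol left the counts of these genes unchanged. Bmp2, Bmp4, Bmp7 and Gdf5 stayed under an adjusted p of 0.05 in all 18. For Bmp2, Bmp4 and Bmp7 it was at most 0.00164 by edgeR or DESeq2. Gdf5, which entered the main test only through its PTH samples, reached 0.0491 by edgeR with PTH replicates 1 and 2 both left out. Bmp1, Bmp3 and Bmp6 lost the call solely when a log2 fold change of at least 1 was required, Bmp5 in 10 and Gdf6 in 7, and Gdf10 gained it in 2. With that fold minimum 1232 of all genes tested were higher and 650 lower, against 3907 and 3762 without it, 2 of the genes were higher and 2 lower, in the other lists 0 BMP and GDF genes, 0 receptor and SMAD genes, 2 antagonists, 1 target and 0 convertases were higher, and 4 receptor and SMAD genes, 3 targets and 0 antagonists were lower. With each sample left out, the lower genes numbered 1 to 3 among the other BMP and GDF genes, 2 to 5 among antagonists (5 without PTH replicate 1) and 0 to 2 among convertases, and the higher convertases 1 to 2. Without the filter on low counts, 1 convertase was higher, and with PTH replicates 1 and 2 both left out 1 was higher and 0 lower. With the replicate number as a block, 4 of the 10 genes were higher and 4 lower, 1 convertase was higher and 0 lower, and no other count moved by over 1.5 times. The deviations of same-numbered samples from their group means correlated at -0.041 to 0.027 across genes. No PTH sample correlated best with the vehicle sample of its own number, so the numbers were not taken as pairs. DESeq2 moved no count by over 1.5 times, nor did its size factors in edgeR, counts halved (as for a longer read length in the counting), counts summed by symbol, the 10 most abundant genes left out or counts thinned to the smallest library. The permutation tests kept their side of 0.05 with log2(CPM + 1). For the 7 genes without overlap of the groups this could not have come out otherwise.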
